A study of Mus musculus with 12 samples.

Results

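The genes described here are 10 cell cycle inhibitors and p53 target genes of the mouse, taken as a named list and matched by Ensembl ID to the symbols of GENCODE M21, out of 43346 genes in the table of the series. They are Cdkn1a, Cdkn1b, Cdkn2a, Cdkn2b, Mdm2, Ccng1, Sesn2, Phlda3, Eda2r and Trp53inp1. RNA was sequenced in 12 libraries of embryonic stem cells, 3 for each of 4 groups. B6 is the inbred strain C57BL/6J and D2 the inbred strain DBA/2J. B6-13D2, the congenic line B6.D2-(rs30079041-rs51756099)/Bakr, has the B6 background with a segment of chromosome 13 from D2. D2-13B6, the congenic line D2.B6-(rs29224292-rs13469455)/Bakr, has the D2 background with a segment of chromosome 13 from B6; the series text names another end for this segment than the sample labels. All groups grew in the same medium, with serum, LIF, 1 µM PD0325901 (a MEK inhibitor) and 3 µM CHIR99021 (a GSK3 inhibitor). The labels name no feeder cells. The protocol describes independent cultures of a single cell line for each strain, so that strain and line cannot be told apart, whereas the titles call the samples technical replicates; p-values therefore measure the spread between these cultures or libraries. The labels give B6 replicate 3 another line name than the other B6 libraries, and the line given in the D2 titles is not the one in their cell line field. The congenic columns of the table carry a prefix that the parental columns lack, so a batch that it may mark and the congenic against parental contrast cannot be told apart.

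The protein p53 is a transcription factor that is stabilised after DNA damage and other stresses and then raises the transcription of genes that halt the cell cycle, repair DNA or trigger cell death. Cyclin-dependent kinases (CDKs) drive the cell cycle, and CDK inhibitors hold it back, above all at the entry into S phase. Mouse embryonic stem cells cycle rapidly with a short G1 phase and are known for low levels of CDK inhibitors.

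All 10 genes lie outside chromosome 13, were above the filter on low counts and had whole counts in every library. Their counts per library ran from 282 to 23320, out of library totals of 22184196 to 36411799. Levels are given in CPM, read counts made comparable between libraries with TMM factors and expressed on a common scale, and levels are compared between genes only as CPM per kilobase of exon. A gene is said to be called when its adjusted p is under 0.05 in edgeR's quasi-likelihood test, with Benjamini-Hochberg adjustment over all 17148 genes tested. Because so many genes were called in every comparison, the counts below are set beside the share of all genes called.

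The promoter windows of these genes, 250 bases before to 50 bases after the RefSeq start (GRCm38.p6), were searched for the p53 response element, since p53 binds a pair of adjacent decamers. Of the 10 genes, 9 had a window, 11 windows in all, and Trp53inp1 had none. A decamer that fits the p53 consensus without a mismatch occurred in 3 genes, Cdkn1a, Mdm2 and Ccng1, and in 2745 of 32851 windows of all genes (8.36%). A pair of adjacent decamers with at most 1 mismatch in its 20 bases occurred in Cdkn1a and Ccng1, and in 29 of all windows (0.0883%). The consensus is its own reverse complement, so both strands were covered, and a pair includes any decamer within it. The pair in Cdkn1a, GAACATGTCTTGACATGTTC, spans chr17:29090928-29090947 on the plus strand and begins 51 bases before the upstream of the 2 RefSeq starts of Cdkn1a; the window of the other start, chr17:29093519-29093818, holds no match. The pair in Ccng1, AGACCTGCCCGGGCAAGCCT, spans chr11:40755462-40755481 on the minus strand and begins 195 bases before the start. The decamer in Mdm2, GAACTTGCCT, spans chr10:117710935-117710944 on the minus strand and begins 186 bases before the start. Each match is a description of the letters, not a site shown to be used, and the lack of a match in the other 6 genes with a window says nothing of p53 elsewhere. The 3 windows with a match and that of Cdkn2b, the gene with the greatest range over the groups and no match, are shown 5′ to 3′ on the strand of the gene, with the matches in capitals. They cover chr17:29090729-29091028 (plus strand), chr11:40755237-40755536, chr10:117710709-117711008 and chr4:89310983-89311282 (minus strand).
Cdkn1a: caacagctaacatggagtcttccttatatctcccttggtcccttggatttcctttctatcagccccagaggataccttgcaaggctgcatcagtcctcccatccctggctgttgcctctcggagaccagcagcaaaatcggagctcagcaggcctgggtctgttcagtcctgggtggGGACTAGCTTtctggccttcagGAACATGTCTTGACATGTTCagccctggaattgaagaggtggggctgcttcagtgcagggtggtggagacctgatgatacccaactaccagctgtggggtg
Ccng1: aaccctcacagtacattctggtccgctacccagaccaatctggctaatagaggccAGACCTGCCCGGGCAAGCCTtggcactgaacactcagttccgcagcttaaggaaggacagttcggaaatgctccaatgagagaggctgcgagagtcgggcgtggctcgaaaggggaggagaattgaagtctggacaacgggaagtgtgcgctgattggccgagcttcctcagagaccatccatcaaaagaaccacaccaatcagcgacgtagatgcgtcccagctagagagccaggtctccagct
Mdm2: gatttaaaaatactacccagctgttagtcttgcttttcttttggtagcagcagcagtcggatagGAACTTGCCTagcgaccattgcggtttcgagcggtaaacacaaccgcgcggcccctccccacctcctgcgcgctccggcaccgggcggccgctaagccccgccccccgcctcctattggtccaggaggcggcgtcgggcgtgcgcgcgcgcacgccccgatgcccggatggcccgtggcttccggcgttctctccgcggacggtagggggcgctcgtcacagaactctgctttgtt
Cdkn2b: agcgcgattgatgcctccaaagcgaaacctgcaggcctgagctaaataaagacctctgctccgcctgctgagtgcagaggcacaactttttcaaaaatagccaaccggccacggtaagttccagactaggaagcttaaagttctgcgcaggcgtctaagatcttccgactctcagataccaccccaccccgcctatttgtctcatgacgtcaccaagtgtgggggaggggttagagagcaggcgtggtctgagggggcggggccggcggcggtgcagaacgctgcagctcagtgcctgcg

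Of the 10 genes, 9 had their lowest mean level in B6-13D2, and 8 had their highest in D2. The order of the group means was B6-13D2, D2-13B6, B6, D2 from lowest to highest for Cdkn1a, Cdkn2a, Cdkn2b, Sesn2 and Phlda3, an order held by 14.8% of all genes tested. For Mdm2, Ccng1 and Eda2r, B6 and D2-13B6 changed places in that order. Trp53inp1 was the exception at the top, with D2-13B6 above D2, and Cdkn1b the exception at the bottom, with B6 below all other groups. Per kilobase of exon, Ccng1 was the most abundant of the genes in every group, from 77.5 CPM per kilobase in B6-13D2 to 181 in D2. Cdkn1b was the least abundant in B6, D2 and D2-13B6, at 5.60, 6.40 and 7.05 CPM per kilobase, and Eda2r in B6-13D2, at 6.40.

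**Figure D1:**
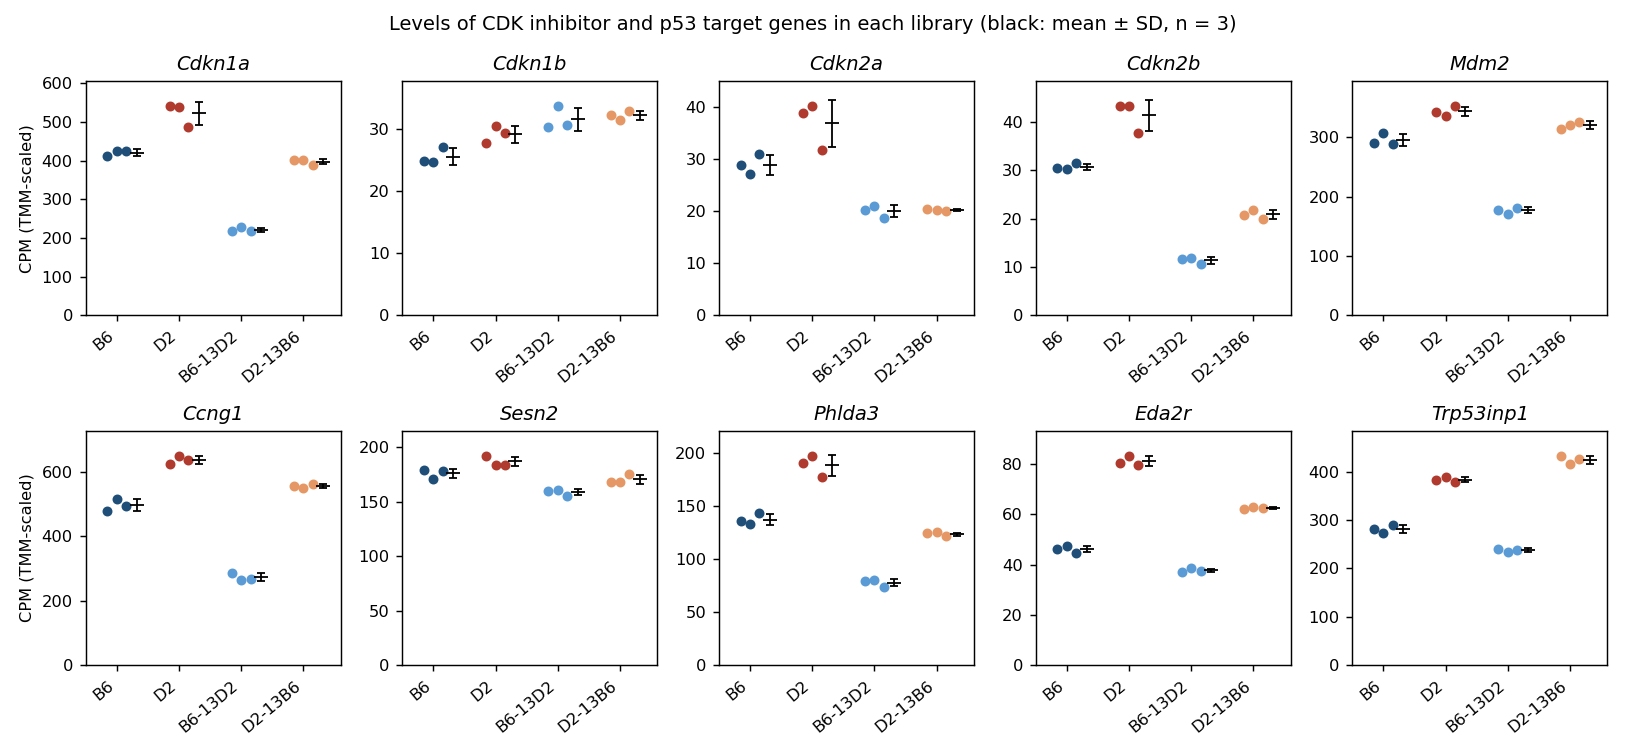
Level of each gene in CPM (vertical axis, TMM-scaled, starting at 0) in each library, by group; points are libraries and black bars are the mean ± SD of 3 libraries. In 9 of 10 panels the B6-13D2 mean is the lowest, and in Cdkn1b the B6 mean is the lowest.

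Cdkn1a (ENSMUSG00000023067, chromosome 17, 29090976 to 29100727) encodes p21, the CDK inhibitor through which p53 arrests cells in G1. Its levels were 411, 425 and 426 CPM in B6, 541, 538 and 487 in D2, 217, 228 and 218 in B6-13D2, and 401, 401 and 390.1 in D2-13B6. The D2 libraries were all above the B6 libraries, and the B6-13D2 libraries were all at about the same level, below every other library. The group means were 221 CPM ± 6.20 for B6-13D2, 397 ± 6.35 for D2-13B6, 421 ± 8.56 for B6 and 522 ± 30.7 for D2 (SD, n = 3 each). Cdkn1a was 1.24-fold higher in D2 than in B6, which is 0.31 on the log2 scale (SE 0.040, edgeR adjusted p 2.46e-06). It was 1.90-fold lower in B6-13D2 than in B6, or -0.93 on the log2 scale (SE 0.040, edgeR adjusted p 1.28e-12). It was 1.31-fold lower in D2-13B6 than in D2, or -0.39 on that scale (SE 0.039, edgeR adjusted p 1.29e-07). B6 and D2-13B6, neighbours in the order, did not overlap but were not called different, with -0.08 on that scale (SE 0.040, edgeR adjusted p 0.0856), though they were without D2 replicate 3 (edgeR adjusted p 0.0208).

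Cdkn2a and Cdkn2b are neighbours on chromosome 4. Cdkn2a (ENSMUSG00000044303, 89274471 to 89294653, minus strand) encodes the CDK4 and CDK6 inhibitor p16 and, from an overlapping reading frame, p19ARF, which inhibits Mdm2; gene counts do not separate these transcripts. Cdkn2b (ENSMUSG00000073802, 89306299 to 89311039, minus strand) encodes p15, a second inhibitor of CDK4 and CDK6. Cdkn2b had 30.4, 30.3 and 31.4 CPM in B6, 43.2, 43.2 and 37.6 in D2, 11.7, 11.9 and 10.6 in B6-13D2, and 20.8, 21.8 and 20.0 in D2-13B6. All 4 groups were apart, with B6-13D2 the lowest, and every neighbouring pair in the order was called different. From B6-13D2 to D2 the level of Cdkn2b differed 3.61-fold, the greatest range among the 10 genes. Its log2 fold change was -1.42 for the congenic line on the B6 background (SE 0.068, edgeR adjusted p 5.25e-12) and -0.99 for the one on the D2 background (SE 0.060, edgeR adjusted p 1.74e-10), each against its background strain.

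Cdkn2a moved in the same directions, but its congenic lines did not separate. It had 28.8, 27.1 and 31.0 CPM in B6, 38.9, 40.2 and 31.8 in D2, 20.2, 21.1 and 18.7 in B6-13D2, and 20.4, 20.3 and 20.0 in D2-13B6. D2 replicate 3 lay close to the highest B6 library, while the D2-13B6 libraries fell within the range of the B6-13D2 libraries. The log2 fold change was 0.36 for D2 over B6 (SE 0.075, edgeR adjusted p 0.000469), -0.53 for B6-13D2 over B6 (SE 0.079, edgeR adjusted p 1.53e-05) and -0.88 for D2-13B6 over D2 (SE 0.075, edgeR adjusted p 1.65e-08). Between the congenic lines it was 0.02 (SE 0.079, edgeR adjusted p 0.873), and this sign turned under other settings.

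Cdkn1b (ENSMUSG00000003031, chromosome 6, 134920401 to 134925513) encodes p27, a CDK inhibitor that is regulated largely at the protein level. Its range was narrow, with a 1.26-fold difference between the highest and the lowest group. The libraries had 24.8, 24.6 and 27.1 CPM in B6, 27.7, 30.4 and 29.3 in D2, 30.2, 33.6 and 30.6 in B6-13D2, and 32.1, 31.4 and 32.8 in D2-13B6. B6 was below all other libraries, whereas B6-13D2 overlapped with both D2 and D2-13B6. Cdkn1b was higher in each congenic line than in its background strain, by a log2 fold change of 0.30 on the B6 background (SE 0.058, edgeR adjusted p 0.000205) and 0.14 on the D2 background (SE 0.055, edgeR adjusted p 0.0419). The latter was not called with DESeq2 (adjusted p 0.073) or when genes with a mean CPM under 1 were left out (edgeR adjusted p 0.115), nor without B6 replicate 1, D2 replicate 1 or 3, B6-13D2 replicate 3 or any of the D2-13B6 replicates (edgeR adjusted p 0.0505 to 0.123). The log2 fold change of 0.19 for D2 over B6 (SE 0.058, edgeR adjusted p 0.00842) was not called without D2 replicate 2 (edgeR adjusted p 0.0537).

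Mdm2 (ENSMUSG00000020184, chromosome 10, 117688875 to 117710758, minus strand) encodes the ubiquitin ligase that degrades p53 and is itself a p53 target, closing a feedback loop. It had 290.5, 306 and 288 CPM in B6, 342, 336 and 352 in D2, 178, 171 and 181 in B6-13D2, and 313, 321 and 325 in D2-13B6. The B6-13D2 libraries stood far below the rest, and the other 3 groups were close to each other but did not overlap. Mdm2 was 1.67-fold lower in B6-13D2 than in B6, or -0.74 on the log2 scale (SE 0.036, edgeR adjusted p 5.28e-12). For D2-13B6 over D2 the log2 fold change of Mdm2 was -0.10 (SE 0.035, edgeR adjusted p 0.0183), and it was not called without the filter on low counts (edgeR adjusted p 0.101), without D2 replicate 1 (0.0628) or without D2-13B6 replicate 1 (0.0867).

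Ccng1 (ENSMUSG00000020326, chromosome 11, 40748552 to 40755311, minus strand) encodes cyclin G1, a p53 target that recruits a phosphatase to Mdm2. Its levels were 479, 515 and 495 CPM in B6, 625, 649 and 637 in D2, 287, 264 and 266 in B6-13D2, and 554, 549 and 562 in D2-13B6. The 4 groups did not overlap, and every neighbouring pair in the order was called different. The log2 fold change of Ccng1 was 0.36 for D2 over B6 (SE 0.037, edgeR adjusted p 1.96e-07), -0.87 for B6-13D2 over B6 (SE 0.038, edgeR adjusted p 1.22e-12) and -0.20 for D2-13B6 over D2 (SE 0.037, edgeR adjusted p 0.000168). Ccng1 lies on a chromosome whose 1386 tested genes were raised as a whole in D2-13B6, with a median log2 fold change of 0.39 against D2 and 0.29 against B6; its part in the values of Ccng1 was not tested. Ccng1 was lower in D2-13B6 than in D2 although the chromosome's median was higher.

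Phlda3 (ENSMUSG00000041801, chromosome 1, 135766119 to 135769136) encodes an inhibitor of Akt signalling that p53 induces. It had 136, 133 and 143 CPM in B6, 190.0, 197 and 177 in D2, 78.8, 79.8 and 73.7 in B6-13D2, and 124, 125 and 122 in D2-13B6. Phlda3 fell in both congenic lines against their background strains, by 0.82 on the log2 scale on the B6 background (SE 0.044, edgeR adjusted p 2.5e-11) and by 0.61 on the D2 background (SE 0.042, edgeR adjusted p 1.05e-09). Its difference between the neighbours D2-13B6 and B6, -0.15 on the log2 scale (SE 0.043, edgeR adjusted p 0.00565), was not called with DESeq2 (adjusted p 0.0695) or with RLE size factors (edgeR adjusted p 0.0649), and was -0.085 in a fit of only the libraries compared (edgeR adjusted p 0.0497).

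Eda2r (ENSMUSG00000034457, chromosome X, 97333840 to 97377216, minus strand) encodes the receptor of ectodysplasin A2, a member of the TNF receptor family and a p53 target. It had 46.3, 47.3 and 44.8 CPM in B6, 80.3, 83.3 and 79.6 in D2, 37.2, 38.5 and 37.5 in B6-13D2, and 62.3, 63.0 and 62.6 in D2-13B6. Both groups on the D2 background were above both groups on the B6 background. Eda2r had the greatest difference of the 10 genes between the parental strains, 1.76-fold, or 0.81 on the log2 scale (SE 0.038, edgeR adjusted p 6.98e-12). The congenic changes were smaller, -0.29 for B6-13D2 over B6 (SE 0.040, edgeR adjusted p 6.22e-06) and -0.37 for D2-13B6 over D2 (SE 0.036, edgeR adjusted p 7.79e-08).

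Trp53inp1 (ENSMUSG00000028211, chromosome 4, 11156431 to 11174379) encodes a p53-induced nuclear protein with roles in cell death and autophagy. It had 281, 274 and 289.8 CPM in B6, 383, 389 and 379 in D2, 241, 234 and 238 in B6-13D2, and 433, 416 and 427 in D2-13B6. The 4 groups did not overlap, and here D2-13B6 was the highest. The log2 fold change of Trp53inp1 was -0.24 for B6-13D2 over B6 (SE 0.032, edgeR adjusted p 4.03e-06) and 0.15 for D2-13B6 over D2 (SE 0.032, edgeR adjusted p 0.000644). It was thus lower with the D2 segment than with the B6 segment on either background, although it was higher in D2 than in B6.

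Sesn2 (ENSMUSG00000028893, chromosome 4, 132492032 to 132510501, minus strand) encodes sestrin 2, a stress-induced inhibitor of mTORC1 signalling. It varied least of the 10 genes, 1.18-fold between the highest and the lowest group, with means of 159 CPM ± 3.02 for B6-13D2, 170.3 ± 3.81 for D2-13B6, 176 ± 4.27 for B6 and 187 ± 4.26 for D2 (SD, n = 3 each). D2-13B6 and B6 overlapped and were not called different (log2 fold change -0.05, SE 0.034, edgeR adjusted p 0.242), and the sign of this difference turned with RLE size factors. Sesn2 was lower in each congenic line than in its background strain, at -0.15 on the log2 scale for B6-13D2 (SE 0.034, edgeR adjusted p 0.00118) and -0.13 for D2-13B6 (SE 0.034, edgeR adjusted p 0.0027). The log2 fold change of 0.08 for D2 over B6 (SE 0.034, edgeR adjusted p 0.0395) was called for Sesn2 but not without the filter on low counts (edgeR adjusted p 0.105), in a fit of only the libraries compared (0.0831), or without B6 replicate 2 or 3, D2 replicate 1 or 2, B6-13D2 replicate 1 or 3, or D2-13B6 replicate 1 or 2 (0.0513 to 0.164). It was larger with other scalings or filters, at 0.138 with DESeq2 (adjusted p 0.000569), 0.138 with RLE size factors (edgeR adjusted p 0.00225) and 0.136 when genes with a mean CPM under 1 were left out (edgeR adjusted p 0.00171). The Sesn2 change in B6-13D2 against B6 was smaller with DESeq2 and with RLE size factors, at -0.085 with each (adjusted p 0.0427 and 0.0431). Sesn2 overlaps Gm12981 on the same strand, whose own count was at most 1.04 CPM.

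The comparison of D2 with B6 asks how the parental strains differ. All 10 genes were called and all 10 were higher in D2, against 29.8% of all genes called higher and 60.0% called in either direction. The median log2 fold change of the 10 genes was 0.36, beside 0.01 over all genes tested. In all 10 genes the D2 and B6 libraries did not overlap, as in 62.0% of all genes.

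B6-13D2 set against B6 asks about the segment of D2 in B6 cells and cannot separate it from other differences of the lines. All 10 genes were called, 9 lower and Cdkn1b higher, against 32.9% of all genes called lower, 25.4% called higher and 58.3% called in either direction. The median of the 10 genes was -0.64, beside -0.04 over all genes. The libraries of the groups did not overlap in any of the 10 genes, as in 63.2% of all genes. The 4 genes that fell most were Cdkn2b, Cdkn1a, Ccng1 and Phlda3, and the smallest change was that of Sesn2.

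D2-13B6 set against D2 asks in the same way about the segment of B6 in D2 cells. All 10 genes were called, 8 lower and Cdkn1b and Trp53inp1 higher, against 29.7% of all genes called lower, 27.6% called higher and 57.3% called in either direction. The median of the 10 genes was -0.29, beside 0.00 over all genes. Again none of the 10 overlapped, as in 62.9% of all genes. Here Cdkn2b and Cdkn2a fell most, followed by Phlda3, Cdkn1a and Eda2r, while Mdm2 changed least.

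Of the 10 genes, 1 followed the interval allele, Trp53inp1, as did 7.33% of all genes tested. That is, it was called in both congenic comparisons, with opposite signs. Trp53inp1 itself lies on chromosome 4, outside the segment. Its level was lower with the D2 segment on both backgrounds, by a log2 value of -0.24 on B6 and -0.15 on D2. Between the parental strains the direction was the opposite, with D2 above B6 at 0.45 on that scale. The other 9 genes were called with the same sign in both congenic lines against their background strains, against 32.2% of all genes, and 8 of the 9 were lower in both, against 19.8%. Averaged over both pairs, the congenic lines were below the parental lines for 8 genes and above for Cdkn1b, against 33.4% and 31.1% of all genes and 64.5% called in either direction. The log2 difference in that contrast was -1.20 for Cdkn2b (SE 0.045, edgeR adjusted p 1.02e-13), -0.72 for Phlda3 (SE 0.031, edgeR adjusted p 6.01e-13) and -0.70 for Cdkn2a (SE 0.054, edgeR adjusted p 2.64e-09). For Trp53inp1 it was -0.05 (SE 0.023, edgeR adjusted p 0.0738), which was not called, though it was without B6 replicate 2 (edgeR adjusted p 0.043) or D2 replicate 3 (edgeR adjusted p 0.0479).

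**Figure D2:**
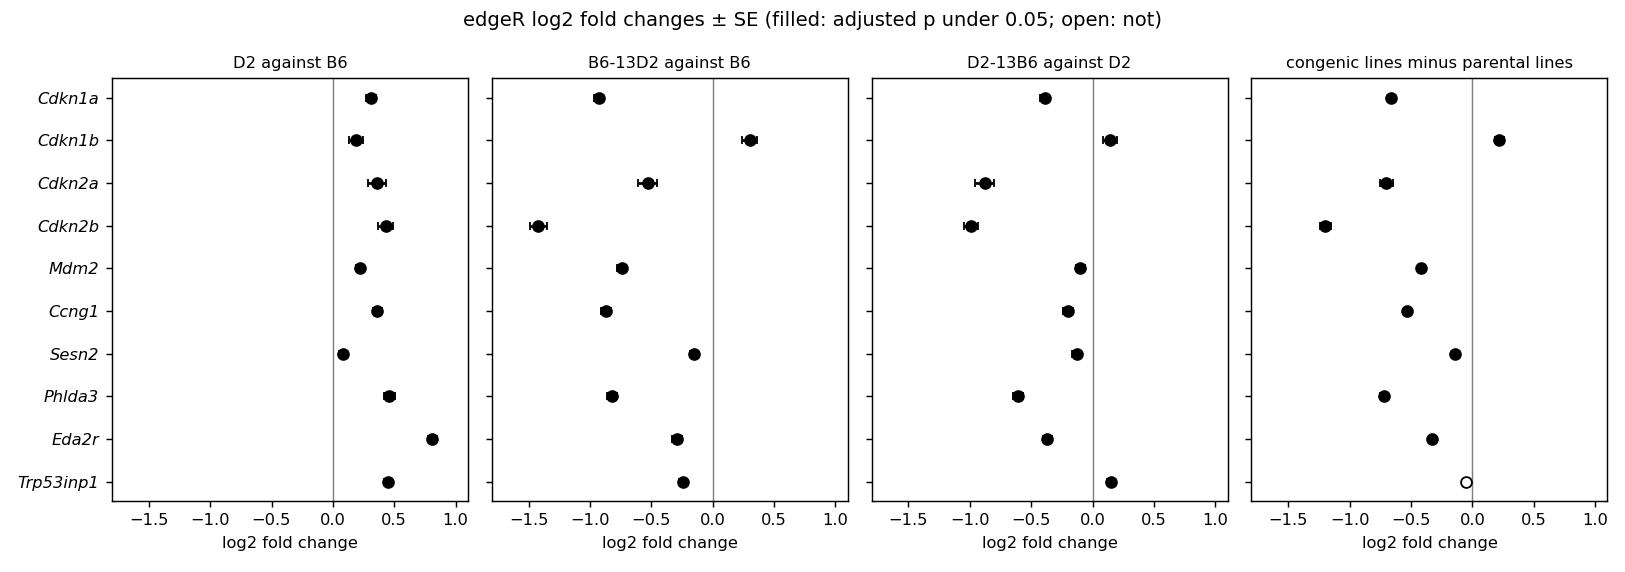
edgeR log2 fold change ± SE of each gene (horizontal axis) in 4 comparisons; filled points have an adjusted p under 0.05, and error bars shorter than the point are hidden by it. All 10 points of D2 against B6 lie right of 0, 9 of 10 lie left of 0 in B6-13D2 against B6, and Cdkn2b lies farthest left there at -1.42.

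Lines that share the segment but not the background were set side by side as well. In B6-13D2 against D2, both with the D2 segment, 9 genes were called and all 9 were lower, against 38.0% of all genes called lower, 36.7% called higher and 74.6% called in either direction, and the same number did not overlap, against 75.5%; the log2 fold changes ran from -1.85 for Cdkn2b to -0.23 for Sesn2 among the called genes, and Cdkn1b was at 0.11, not called except without B6-13D2 replicate 1 (edgeR adjusted p 0.0498). In D2-13B6 against B6, both with the B6 segment, 8 genes were called, 5 higher and 3 lower, against 24.5% and 34.6% of all genes and 59.0% in either direction; 9 did not overlap, against 65.2%. The higher ones were Trp53inp1 at 0.60, Eda2r at 0.44, Cdkn1b at 0.33, Ccng1 at 0.16 and Mdm2 at 0.12 (0.185 in a fit of only the libraries compared), and the lower ones Cdkn2b at -0.55, Cdkn2a at -0.52 and Phlda3 at -0.15. Between the congenic lines, 8 genes were higher in D2-13B6 than in B6-13D2, against 38.4% of all genes called higher and 70.2% in either direction, and 8 did not overlap, against 74.9%. Ccng1 was at 1.03, where the median of chromosome 11 was 0.39, Cdkn2b at 0.87 and Mdm2 at 0.86; the call of Sesn2, at 0.10, was lost without B6-13D2 replicate 3 (edgeR adjusted p 0.0861) or D2-13B6 replicate 3 (0.0806), and with only the libraries compared (0.0645).

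Fibroblasts are a cell type that cultures of embryonic stem cells can hold as feeders or differentiated progeny. Their markers moved with many but not all of these genes. Cdkn1b rose in both congenic lines against their background strains, and Trp53inp1 in D2-13B6 against D2, whereas most markers fell there. All 8 fibroblast markers were detected in every library, and none was at 0. Their summed level was 3095 to 3182 CPM for B6-13D2, 7731 to 8055 for D2-13B6, 9383 to 10191 for B6 and 14177 to 16967 for D2. The order of these group means is the order of Cdkn1a, Cdkn2a, Cdkn2b, Sesn2 and Phlda3. The sum is made up mostly of the collagen genes Col1a1 and Col1a2, with means of 6428 and 2617 CPM in B6, and 4 of the 8 markers hold its order singly. All 8 fibroblast markers were called higher in D2 than in B6, all 8 lower in B6-13D2 than in B6, and 7 lower in D2-13B6 than in D2, where 29.8%, 32.9% and 29.7% of all genes were called in those directions. D2 replicate 3, the lowest D2 library in the fibroblast marker sum, was also the lowest of the D2 libraries in 7 of the 10 genes, Cdkn1a, Cdkn2a and Cdkn2b among them. The share of all genes lowest in that library was not computed. Not every marker was lowest there: of the D2 libraries, Postn was highest in replicate 3, at 185 CPM, and Dcn lowest in replicate 2, at 2.53 CPM. Between D2-13B6 and B6 the markers were split, 4 called higher and 4 lower in D2-13B6, with a median log2 fold change of -0.07, beside -0.06 over all genes; the sum was lower in D2-13B6. Of the 10 genes, Cdkn2a, Cdkn2b and Phlda3 were lower there, whereas Mdm2, Ccng1, Eda2r, Trp53inp1 and Cdkn1b were higher. The part of these cells in the levels of the 10 genes was not tested, and in such bulk samples fewer cells of a type and less RNA per cell cannot be told apart.

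**Figure D3:**
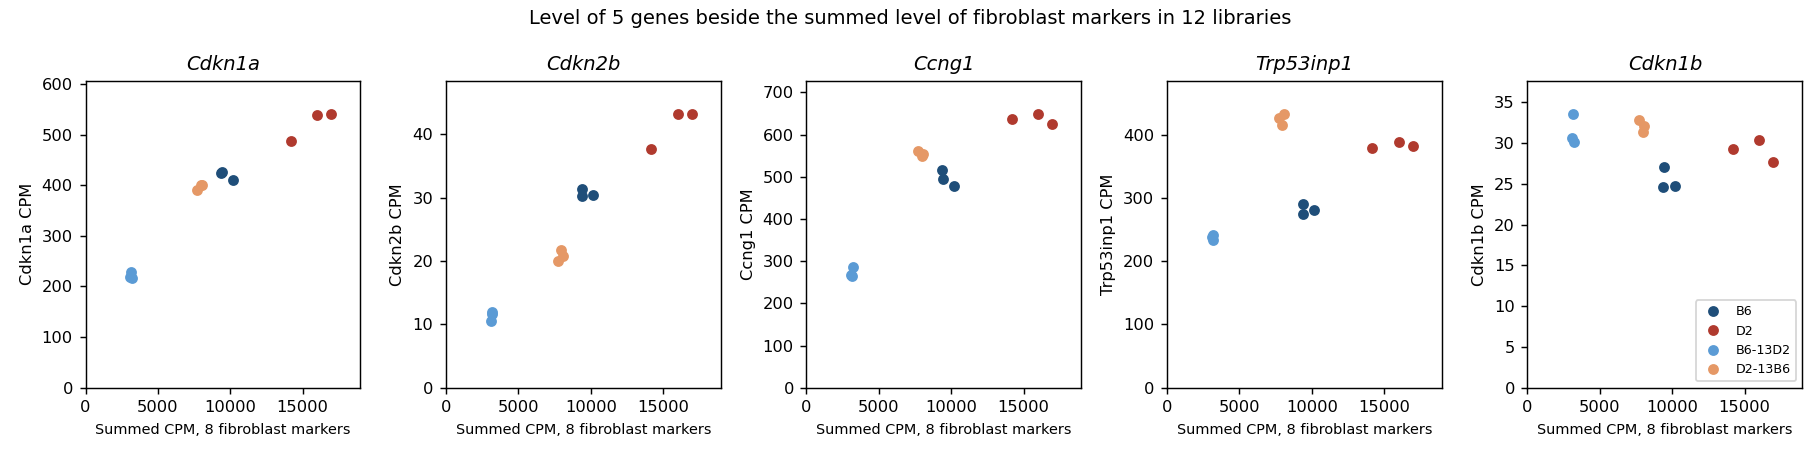
Level of 5 genes in CPM (vertical axes, starting at 0) beside the summed CPM of 8 fibroblast markers (horizontal axes) in the same 12 libraries, coloured by group. Cdkn1a and Cdkn2b follow the order of the marker sum over the groups, whereas Trp53inp1 is highest in D2-13B6 and Cdkn1b lowest in B6.

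The labelled cell type was in accord with its markers: all 8 markers of pluripotent stem cells were detected in every library, with sums of 2599 to 2630.4 CPM for D2, 3065 to 3087 for D2-13B6, 3367 to 3605 for B6 and 3766 to 3960.4 for B6-13D2. From highest to lowest, this is the order of Mdm2, Ccng1 and Eda2r from lowest to highest. The primitive endoderm sum and the mesoderm and neural sum, given below, have the order of these genes in the same direction. Markers of a state that resembles the 2-cell embryo summed to 157 to 190.0 CPM in D2 and to 27.4 to 43.1 CPM in the other groups, with 1 of the 7, Tcstv3, at 0 counts in at least 1 library. Of the pluripotency markers, 5 of the 8 hold the order of their sum singly. Utf1 was highest in D2, at 142 CPM, and lowest in B6, at 94.6, and Klf4 was highest in B6, at 418, with 322 in B6-13D2. The sums of 3 other marker lists each rest mostly on 1 gene, and in each list 2 of the 6 genes hold the order of the sum singly. For primitive endoderm, an early extraembryonic lineage, the means were 15.3 CPM for B6-13D2, 32.9 for B6, 37.1 for D2-13B6 and 42.5 for D2, with 63.6% of the sum from Dab2; Gata4 was highest in B6, at 3.29 CPM, and lowest in D2, at 1.54. For mesoderm and neural progeny they were 36.2, 47.7, 51.6 and 61.2 CPM in that sequence of groups, with 79.3% from Nes; Sox1 went the other way between the first pair of groups, at 7.04 CPM in B6-13D2 and 3.02 in B6, and Mesp1 and Pax6 were at 0 counts in at least 1 library. For trophoblast the means were 28.3 CPM for D2-13B6, 47.6 for D2, 58.8 for B6 and 84.1 for B6-13D2, with 68.8% from Tfap2c; Cdx2 ran the opposite way between the congenic lines, at 4.49 CPM in D2-13B6 and 0.898 in B6-13D2. The parts of these marker sets in the levels of the 10 genes were not tested.

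The gene for p53 itself was, like 9 of the 10 genes, lowest in B6-13D2, but it was not called different between the parental strains and was higher in D2-13B6 than in D2. Trp53 (chromosome 11) had means of 380.1 CPM ± 6.56 for B6-13D2, 406 ± 17.9 for D2, 415 ± 12.2 for B6 and 549.9 ± 8.99 for D2-13B6 (SD, n = 3 each). Its log2 fold change was -0.03 for D2 over B6 (SE 0.036, edgeR adjusted p 0.497), -0.13 for B6-13D2 over B6 (SE 0.036, edgeR adjusted p 0.0062) and 0.44 for D2-13B6 over D2 (SE 0.036, edgeR adjusted p 1.03e-08). The last value lies beside the median of 0.42 for the 158 tested genes of chromosome 11 between 66 and 74 Mb, where Trp53 lies, and 0.39 for the 1228 others of that chromosome. Of a list of 12 genes, Trp53 and its regulators, 1 was higher and 7 lower in D2 than in B6, 4 higher and 6 lower in B6-13D2 than in B6, and 10 higher and 2 lower in D2-13B6 than in D2. Over all genes, 60.0%, 58.3% and 57.3% were called in these comparisons. In either direction, the first of these counts, 8 of 12, is near the background. By direction, 29.8% of all genes were higher and 30.3% lower in the first comparison, 25.4% and 32.9% in the second, and 27.6% and 29.7% in the third. The medians of the list were -0.15, -0.08 and 0.31 on the log2 scale, beside 0.01, -0.04 and 0.00 over all genes. Mdm4, the partner of Mdm2 that holds p53 inactive, had mean levels of 229 CPM for D2, 256 for B6, 283 for D2-13B6 and 353 for B6-13D2, the reverse of Mdm2 at both ends. Its log2 fold change was -0.16, 0.46 and 0.31 in the same comparisons as above. Among the kinases that act on p53 after DNA damage, Chek1 was at -0.57, 0.41 and 0.32, Chek2 at -0.29, 0.32 and 0.21, Atr at -0.29, 0.15 and 0.62, and Atm at -0.47, -0.19 and 0.37, all called. Hipk2, a kinase that phosphorylates p53 before cell death, was at 0.48, -0.59 and 0.24. Ppm1d, a phosphatase that reverses p53 activation and a gene of chromosome 11, was at -0.03 (not called), -0.22 and 0.46.

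**Figure D4:**
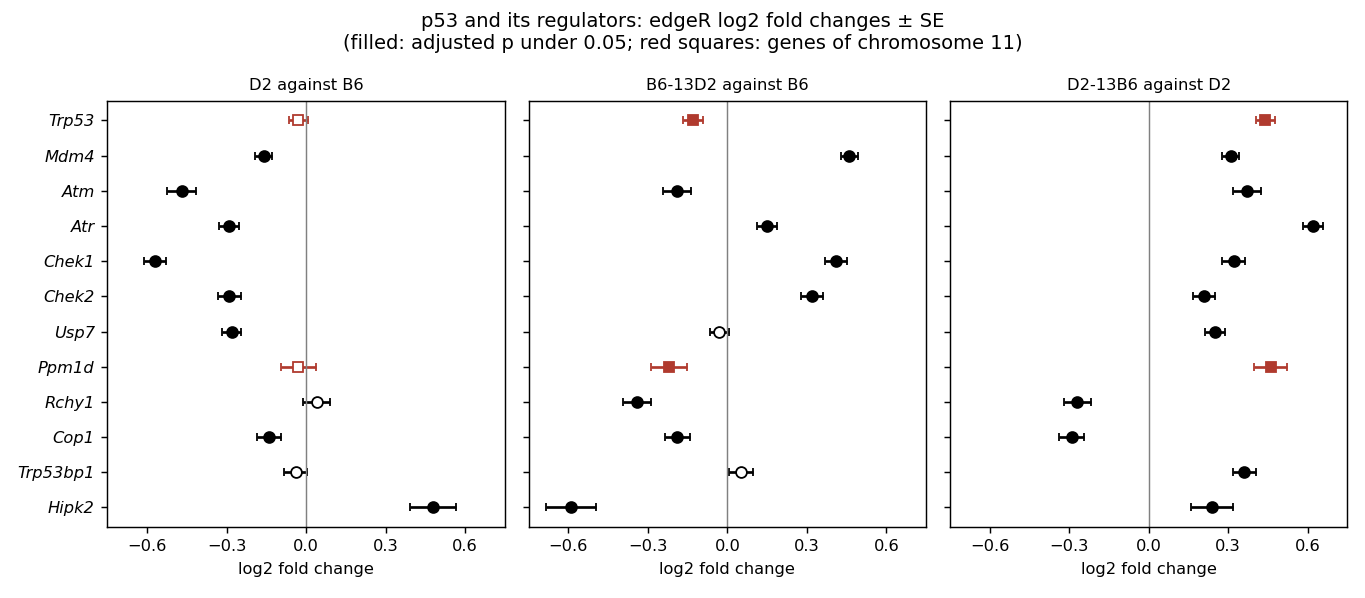
edgeR log2 fold change ± SE (horizontal axis) of 12 genes, Trp53 and its regulators, in 3 comparisons; filled symbols have an adjusted p under 0.05 and red squares are genes of chromosome 11. In D2-13B6 against D2, 10 of the 12 lie right of 0 and Rchy1 and Cop1 left of it.

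A list of 31 other p53 target genes was split in direction, with 24, 24 and 20 called in the 3 comparisons, beside the same 60.0%, 58.3% and 57.3% of all genes. In D2 against B6, 15 were higher and 9 lower, with a median log2 fold change of 0.15, beside 0.01 over all genes. Perp, an effector of cell death at the membrane, was at 0.62 on the log2 scale (SE 0.058, edgeR adjusted p 5.38e-08), and Tigar, a regulator of glycolysis, at -0.49 (SE 0.043, edgeR adjusted p 3.18e-08). Set against B6, the B6-13D2 line had 7 higher and 17 lower, with a median of -0.19, beside -0.04. The lowest were Plk2, a polo-like kinase gene that itself lies on chromosome 13, at -1.65, the death receptor gene Fas at -1.54 and Perp at -1.21, while Fdxr, a mitochondrial reductase gene, was at 0.58. In D2-13B6 against D2, 6 were higher and 14 lower, with a median of -0.12, beside 0.00. Pmaip1, which encodes the cell death protein Noxa, was at -0.80, Plk2 at -0.67 and Btg2, an antiproliferative gene, at -0.56, while Fdxr was at 0.92 and Sesn1, a relative of Sesn2, at 0.66. Fdxr lies on chromosome 11, with the medians given above; its values were uneven in D2, at 11.3 CPM ± 2.01.

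Among genes of the machinery that the inhibitors act on, the direction also varied. Of 18 genes for G1 cyclins, CDKs and the RB and E2F proteins, 6 were higher and 11 lower in D2 than in B6, 10 higher and 3 lower in B6-13D2 than in B6, and 5 higher and 7 lower in D2-13B6 than in D2. In total 17, 13 and 12 of the 18 were called, beside 60.0%, 58.3% and 57.3% of all genes. Ccnd2, which encodes cyclin D2, a partner of CDK4 and CDK6, had mean levels of 118 CPM for B6-13D2, 267 for D2-13B6, 385 for B6 and 571 for D2, in the same order as Cdkn2b. Its log2 fold change was 0.57 for D2 over B6, -1.70 for B6-13D2 over B6 and -1.10 for D2-13B6 over D2. Cdk2, the kinase that p21 and p27 inhibit, was lower in D2 than in B6, at -0.56 on the log2 scale (SE 0.045, edgeR adjusted p 8.13e-09), and higher in both congenic lines than in their background strains, at 0.39 on B6 (SE 0.043, edgeR adjusted p 3.81e-07) and 0.34 on D2 (SE 0.044, edgeR adjusted p 3.47e-06). The highest changes of the list in B6-13D2 over B6 were those of E2f1, a transcription factor gene of S phase entry, at 0.45, Cdk6 at 0.42 and Ccnd3, which encodes cyclin D3, at 0.41. Of 12 proliferation genes, none was higher and 11 were lower in D2 than in B6, 8 were higher and none lower in B6-13D2 than in B6, and 8 were higher and 1 lower in D2-13B6 than in D2. Of all genes, 30.3% were called lower in D2 than in B6, and 25.4% and 27.6% higher in the congenic lines than in their background strains. The highest of these proliferation genes in D2-13B6 over D2 were Top2a at 0.95 and Aurkb at 0.73. Both lie on chromosome 11, whose tested genes had a median of 0.39 in that comparison, and its part in these values was not tested. Of the 3 other CDK inhibitors, 1 was called higher and 1 lower in B6-13D2 than in B6. Cdkn2d, which encodes p19INK4D, was at 0.74 (SE 0.124, edgeR adjusted p 5.79e-05), and Cdkn1c, which encodes p57, at -0.94 (SE 0.154, edgeR adjusted p 4.3e-05). In D2 against B6, 1 of the 3 was higher; none of the 3 was called in D2-13B6 against D2 (edgeR adjusted p 0.177 to 0.659), where 57.3% of all genes were.

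For 9 of the 10 genes, all but Cdkn2a, the gene with the most similar log2 CPM over the 12 libraries was taken from 8319 candidates with whole counts; as the libraries form 4 groups, this likeness largely describes group means. Eda2r was most like Aen, which encodes a p53-induced nuclease, with r = 0.998, and Aen had mean levels of 99.7 CPM for B6-13D2, 114 for B6, 139.5 for D2-13B6 and 163 for D2. Cdkn2b was most like Cpe (r = 0.998), Cdkn1a like Igf2 (r = 0.997), Mdm2 like Irgm1 (r = 0.997) and Phlda3 like Tmem119 (r = 0.997). Ccng1 was most like Lipa (r = 0.996), Trp53inp1 like Wdfy1 (r = 0.994) and Sesn2 like Mfap2 (r = 0.987). Of these 9, Cdkn1b had the weakest match, Znrd1as at r = 0.953.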

How the data were processed

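Expected counts are the unit of the deposited table, which gives them per library and Ensembl gene, as estimates that can be fractional; its own title attributes them to EMASE, a method that shares ambiguous reads out among genes. The submitters' processing notes name mm10, Bowtie 1.0.0 and edgeR 3.34.1; strand use in counting is not given in the sources used here, so overlapping genes are uncertain. Of all values, 88.1% were whole within 1e-06. Symbols and positions came from GENCODE M21 (GRCm38): 42462 of 43346 IDs matched, and the 884 others held 0.361% of reads. Every column mapped to a library (0 were left out).

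Rounded expected counts went into edgeR 4.0.16 (R 4.3.3) with the filterByExpr filter at a minimum count of 10, TMM scaling, a quasi-likelihood fit of 4 group means over 12 libraries (common dispersion 0.001834), and Benjamini-Hochberg adjustment at 0.05 over the 17148 genes tested. SE was derived from the fold change and its F statistic, as |log2 fold change| over root F. Simulated counts were drawn 3 times for the 12 libraries, from gene means pooled over all groups, the library sizes and the common dispersion. Changes were placed in the D2 libraries, in genes above a minimum expected count. In D2 against B6 (16788 to 16834 genes tested), edgeR gave back 37 to 42 of 50 changes of 1.3-fold and 43 to 45 of 1.5-fold. It gave back 47 to 49 of 2.0-fold and 50 of 4.0-fold, with 5 to 9 false calls.

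Alternatives were unrounded counts, a mean CPM filter of 1, no filter, DESeq2 1.42.0, RLE size factors, fits of only the libraries compared, a replicate block, and leaving out each library. The genes and all lists were chosen with earlier results of these data known. Genes outside the 10 were named by rule: any p53 regulator; of other lists the 3 highest and 3 lowest called changes per comparison with a log2 CPM averaging at least 2; and the 1 gene most correlated with each of the 10. The last is not reported here for Cdkn2a. Cdkn1c, the markers named singly and the markers at 0 (Tcstv3, Mesp1 and Pax6) were named, and chromosome medians added, after values were seen.

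Of the 11 lists beside the 10 genes, 3 marker lists of other cell types have their counts here, called higher and lower in D2 against B6, B6-13D2 against B6 and D2-13B6 against D2, where 60.0%, 58.3% and 57.3% of all genes were called. For 6 primitive endoderm genes these were 3 and 1, 0 and 3, 2 and 1; for 5 tested trophoblast genes 1 and 2, 2 and 2, 1 and 2; for 5 tested mesoderm and neural genes 3 and 0, 1 and 4, 0 and 2.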

Additional observations from a re-analysis of the deposited data

Results flagged for a closer look

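The effect of the D2 segment differed between the backgrounds for 9 of the 10 genes (edgeR, Benjamini-Hochberg adjusted p under 0.05), as it did for 64.5% of all genes. The value for each gene is the effect on the B6 background minus that on the D2 background, on the log2 scale. Among the CDK inhibitors it was -2.41 for Cdkn2b (-1.42 on B6, 0.99 on D2), -1.41 for Cdkn2a (-0.53 and 0.88), -1.32 for Cdkn1a (-0.93 and 0.39) and 0.44 for Cdkn1b (0.30 and -0.14). Among the p53 targets it was -1.43 for Phlda3 (-0.82 and 0.61), -1.07 for Ccng1 (-0.87 and 0.20), -0.84 for Mdm2 (-0.74 and 0.10), -0.67 for Eda2r (-0.29 and 0.37) and -0.28 for Sesn2 (-0.15 and 0.13). In each of the 9 the sign of the effect was opposite on the 2 backgrounds. By its construction this value also equals the sum of congenic minus the sum of parental group means, so an effect that depends on the background and anything that the congenic libraries share cannot be told apart.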

How the results depend on the processing

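The number of the 10 genes called stayed within 1.5 times its value in every comparison and alternative run. Leaving out 1 library at a time, it was 8 to 10 for D2 over B6, 10 for B6-13D2 over B6, 8 to 10 for D2-13B6 over D2 and 9 to 10 for congenic minus parental lines. Among the log2 fold changes of single genes, a call was lost 8 times under other settings, over 5 distinct fold changes, and 20 times with a library left out, also over 5; a call was gained 4 times, over 3. The sign turned for 3 differences, none called in the reported analysis. Sesn2 in D2-13B6 against B6 was at 0.007 with DESeq2, 0.008 with RLE size factors and 0.019 with only the libraries compared. Cdkn1b in D2-13B6 against B6-13D2 was at -0.012 with only the libraries compared and -0.007 to 0.072 when B6-13D2 libraries were left out, lowest without B6-13D2 replicate 1. Cdkn2a in D2-13B6 against B6-13D2 was at -0.010 under the mean CPM filter of 1, -0.024 with only the libraries compared and -0.035 to 0.049 when B6-13D2 libraries were left out, lowest without B6-13D2 replicate 3. The causes were not tested. In CPM of the plain library total, B6 and D2-13B6 changed places for Cdkn1a and Sesn2. Another scaling moved the median of all genes by at most 0.063. With counts of at least 282 per library, depth limits none of the 10 genes to detection alone.

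Replicate numbers did not pair the libraries: deviations of 18 same-numbered pairs had a mean correlation of -0.011 (-0.125 to 0.068), and 4 of 12 libraries correlated best with their own number. In a fit with this replicate block, 10 genes were called for D2 over B6, 10 for B6-13D2 over B6, 10 for D2-13B6 over D2 and 9 for congenic minus parental lines.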
